A study of Mus musculus with 15 samples.

Results

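Nrn1 and Penk, 2 of the 23284 genes in the deposited expression table, were followed across 5 populations of mouse CD8 T cells. Each symbol matched 1 entry. Nrn1 encodes neuritin, a small protein held on the cell surface by a lipid anchor. Penk encodes proenkephalin, the precursor of the enkephalin opioid peptides. Both genes were chosen by their measured FPKM in these same libraries: Nrn1 for its difference between cocktail and IL-2 cultures, and Penk for its difference between the CD62L gates of the cocktail culture. Their levels are therefore given as a description, without p-values.

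Neuritin was first known as a product of active neurons, where it promotes the growth of neurites and the maturation of synapses. In T cells its transcript has been described in regulatory and anergic cells. Proenkephalin is cut by proprotein convertases and trimmed by carboxypeptidases to release Met- and Leu-enkephalin, which act on delta and mu opioid receptors. Penk is a textbook target of cyclic AMP signalling through CREB and AP-1 factors, and its transcript has been found in activated and regulatory T cells.

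The cells came from OT-I mice, whose T cell receptor transgene recognises the ovalbumin peptide SIINFEKL on H-2Kb. In both cultures they were activated with SIINFEKL-coated dendritic cells derived from bone marrow and then grown for 14 days. The medium held either IL-2, the classical growth factor of effector T cells, or a cocktail of 2-deoxyglucose, which inhibits glycolysis, the cytokines IL-7 and IL-21, and TWS119, an inhibitor of glycogen synthase kinase 3. Cells were sorted on CD44, which activated T cells carry at high levels, and on CD62L, the lymph node homing receptor. The groups were cocktail CD44loCD62L+, cocktail CD44+CD62L+, cocktail CD44+CD62L-, IL-2 CD44+CD62L- and uncultured naive cells at day 0, sorted as CD62L+ with low or no CD44. Each group had 3 RNA-seq libraries that the submitters call technical replicates, 15 in all. Errors and p-values thus measure how far libraries of the same population differ, which need not be how far mice or cultures would.

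Levels are FPKM, fragments scaled by transcript length and library size, a unit that allows genes to be compared with each other. Read totals were not given. Low values moved in steps, with 69.7% of 19102 ratios between libraries within 0.05 of a whole number, where an even spread gives 10%. The steps put the shallowest library at 0.787 of the depth of the deepest, but too many values fell between them to recover read counts. In all libraries the summed level of 8 CD8 T cell markers, Cd8a, Cd8b1 and Cd3e among them, lay between 2307 and 3908 FPKM. The 15 libraries all list 0 for Eef1a1, a translation factor gene that every cell uses, and a gene is therefore only described as listed at 0.

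Nrn1 lies on chromosome 13 (36725361 to 36735131, minus strand, GRCm38, GENCODE gene span). Its annotated coding transcripts have 3 or 4 exons. The 3′ end of the gene runs into Fars2 (36117412 to 36726280), a mitochondrial tRNA synthetase gene on the plus strand that overlaps 3 of the 12 distinct exons annotated for Nrn1. Whether counting used strand is not given in the sources used here, so reads in that stretch cannot be assigned to either gene with certainty. Fars2 itself averaged 16.9 ± 0.352, 15.4 ± 0.767 and 15.2 ± 0.171 FPKM in the cocktail CD44loCD62L+, CD44+CD62L+ and CD44+CD62L- cells, 11.2 ± 0.383 in IL-2 cells and 11.5 ± 0.400 in naive cells (SD, n = 3 each). It reached the minimum fold in none of the 7 comparisons made. Penk lies on chromosome 4 (4133531 to 4138819, minus strand), and its coding transcripts have 2 or 3 exons. The non-coding gene A830012C17Rik on the plus strand overlaps 2 of its 5 distinct exons.

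Nrn1 was abundant in every cocktail population and low in both others. The cocktail CD44loCD62L+ libraries had 279.6, 277 and 274 FPKM, the cocktail CD44+CD62L+ libraries 234, 235 and 236 FPKM, and the cocktail CD44+CD62L- libraries 206, 203 and 204 FPKM. IL-2 libraries had 2.86, 2.63 and 2.53 FPKM, and naive libraries 0.474, 0.393 and 0.446 FPKM. No 2 groups overlapped. The 3 cocktail groups lay together at the top, with a wide gap below them.

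Among the 11242 genes that reached a group mean of 1 FPKM, Nrn1 ranked 300th by level in the cocktail CD44loCD62L+ cells, 356th in the CD44+CD62L+ cells and 414th in the CD44+CD62L- cells. It ranked 9201st in IL-2 cells and 10421st in naive cells. Thus 97.3% of these genes had a lower level than Nrn1 in the first of these populations, and 7.30% in naive cells. In a bulk sample, more cells carrying the transcript and more transcript per cell cannot be told apart, and this holds for every level given here.

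In order of level, each neighbouring pair of groups differed by more than its spread. Cocktail CD44loCD62L+ cells were 1.18 times the cocktail CD44+CD62L+ cells, a difference of 42.1 FPKM against a larger SD of 2.94. Cocktail CD44+CD62L+ cells were 1.15 times the cocktail CD44+CD62L- cells, a difference of 30.4 FPKM against a larger SD of 1.18. Differences beyond the spread of technical libraries were common among all genes. By log2 fold change these steps ranked 1971st and 1025th from the highest of 11242 genes. At an unadjusted p under 0.05 by limma, 4209 genes were higher and 4246 lower across the first step, and 3059 and 3070 across the second. Cocktail CD44+CD62L- cells were 76.4 times the IL-2 CD44+CD62L- cells, the widest of the 4 steps. IL-2 cells in turn were 6.11 times naive cells, 2.67 ± 0.169 against 0.437 ± 0.0413 FPKM.

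Penk stood at a much lower level and followed a different order within the cocktail culture. Cocktail CD44loCD62L+ libraries had 9.78, 9.97 and 9.65 FPKM, cocktail CD44+CD62L+ libraries 25.8, 26.2 and 24.8 FPKM, and cocktail CD44+CD62L- libraries 9.97, 10.7 and 10.4 FPKM. IL-2 libraries had 0.256, 0.168 and 0.142 FPKM, and naive libraries 0.0575, 0 and 0.0571 FPKM. The CD44+CD62L+ cells held more Penk than both other cocktail groups, which lay next to each other.

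Those neighbours, cocktail CD44+CD62L- at 10.3 ± 0.357 and cocktail CD44loCD62L+ at 9.80 ± 0.162 FPKM, were barely separated: the lowest library of the first had 9.97 FPKM and the highest of the second 9.968, and the means differed by 1.51 times the larger SD. Penk in the cocktail CD44+CD62L+ cells was 2.47 times the CD44+CD62L- cells, a difference 21.04 times the larger SD. The IL-2 and naive levels rest on very few fragments. After scaling by relative depth, the naive libraries above 0 shared a value of 0.0453, while the IL-2 libraries were at 0.204, 0.136 and 0.114, and the coefficient of variation was 86.6% in naive cells and 31.7% in IL-2 cells.

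**Figure D1:**
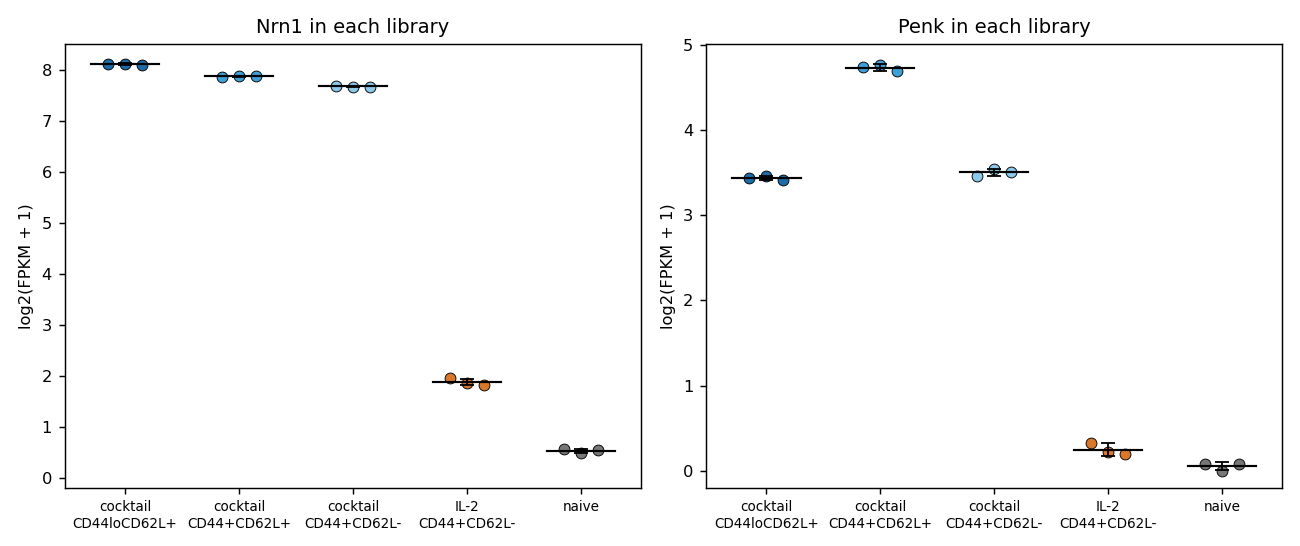
Levels of Nrn1 (left) and Penk (right) in each of the 15 libraries, as log2(FPKM + 1), with separate vertical scales; points are libraries, long lines group means and error bars SD (n = 3). Nrn1 declines stepwise across the cocktail groups, while Penk peaks in the cocktail CD44+CD62L+ cells, and both are near the floor in naive cells.

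The ratio of Nrn1 to Penk put this contrast in 1 value. It was 28.3 ± 0.390 in the cocktail CD44loCD62L+ cells, 9.19 ± 0.290 in the CD44+CD62L+ cells and 19.8 ± 0.8 in the CD44+CD62L- cells, against 14.9 ± 3.40 in IL-2 cells (SD, n = 3 libraries each). Naive cells gave no ratio because 1 library was listed at 0 for Penk. Across the 5 group means of log2(FPKM + 1), Pearson's r between the genes was 0.96, and across the 3 cocktail means alone it was -0.10. These points share 1 table and few groups, and no p is given.

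The 7 contrasts were estimated with limma on log2(FPKM + 1), on which scale the change of low genes is understated. Against IL-2 cells of the same CD44+CD62L- gate, the cocktail cells had a log2 fold change of 5.81 ± 0.0276 (SE) for Nrn1, the 8th highest of 11242 genes, and of 3.25 ± 0.0393 for Penk, the 41st highest. Of all genes, 7.85% passed an adjusted p of 0.05 by limma and a 2-fold minimum there. Nrn1 was chosen by that contrast and Penk by another in the same libraries, so nothing is read from it.

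Within the cocktail culture the genes parted. For cocktail CD44+CD62L+ against CD44+CD62L- cells, Penk had a log2 fold change of 1.23 ± 0.0393 and Nrn1 one of 0.20 ± 0.0276, and 0.116% of all genes passed both criteria. For cocktail CD44loCD62L+ against CD44+CD62L+ cells, Penk had -1.30 ± 0.0393 and Nrn1 0.24 ± 0.0276, where 2.68% of genes passed. Penk was thus past the minimum fold across both gates, in opposite directions, and Nrn1 across neither. With a pseudocount of 5, Penk came to 1.00 across the CD62L gate, just under that minimum. Penk was chosen by its difference across the CD62L gate, and the CD44 contrast uses the same CD44+CD62L+ libraries. Nothing is therefore read from either contrast for Penk.

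Against naive cells, Nrn1 had log2 fold changes of 7.60, 7.36 and 7.16 in the cocktail CD44loCD62L+, CD44+CD62L+ and CD44+CD62L- cells and of 1.35 in IL-2 cells (SE 0.0276 each). Penk had 3.38, 4.68 and 3.45 in the same cocktail groups and 0.19 in IL-2 cells (SE 0.0393 each). These 4 contrasts share their naive libraries, and 17.7%, 22.8%, 22.5% and 31.3% of all genes passed both criteria in them, in the same order. The IL-2 value of Nrn1 was 0.50 with a pseudocount of 5, under the minimum fold, and that of Penk was 1.07 with a pseudocount of 0.1, over it.

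**Figure D2:**
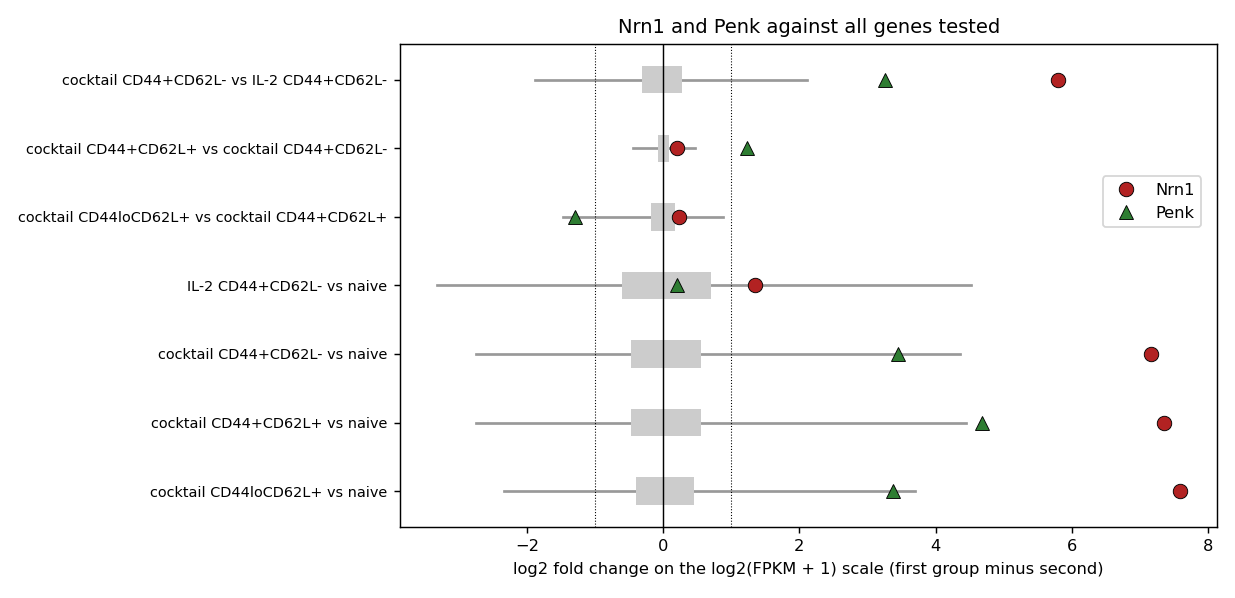
Log2 fold changes of Nrn1 (circles) and Penk (triangles) in the 7 comparisons, first-named group minus second, over the distribution of all 11242 genes tested (grey box, 25th to 75th percentile; grey line, 1st to 99th percentile; dotted lines, the 2-fold minimum). Nrn1 lies beyond the 99th percentile wherever a cocktail group is set against IL-2 or naive cells, and Penk lies beyond it in 3 comparisons, at 3.25 against IL-2 cells, 1.23 across the CD62L gate and 4.68 for cocktail CD44+CD62L+ against naive cells.

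Other cell types were checked through their markers, since both transcripts are known outside CD8 T cells. The regulatory T cell factor gene Foxp3 averaged 0.0400, 0.0180 and 0.0772 FPKM in the cocktail CD44loCD62L+, CD44+CD62L+ and CD44+CD62L- cells, 1.505 in IL-2 cells and 0.158 in naive cells. Cd4 stayed at or under 0.0474 FPKM in every cultured library and between 0.264 and 0.333 in naive ones. The 5 markers of CD4 and regulatory T cells summed to 22.6 to 24.4 FPKM in cocktail libraries, 19.7 to 20.7 in IL-2 libraries and 10.98 to 12.4 in naive libraries. Ikzf2 and Zbtb7b made up most of the sum in cultured cells, and Cd40lg, at 7.80 FPKM, in naive cells.

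Of 14 markers of neurons and glia, Mbp, a myelin protein gene also transcribed in lymphoid cells, made up most of the sum, at 42.1, 36.6 and 35.0 FPKM in the 3 cocktail groups, 15.6 in IL-2 cells and 55.2 in naive cells. Among the others, Stmn2 and Mog were listed at 0 in each cocktail group. The 18 dendritic cell and macrophage markers summed to 50.7 to 60.1 FPKM in cocktail libraries, 13.0 to 13.6 in IL-2 libraries and 118 to 122.5 in naive libraries. H2-Ab1, an MHC class II gene, averaged 19.9, 17.6 and 13.7 FPKM in the cocktail CD44loCD62L+, CD44+CD62L+ and CD44+CD62L- cells, 0.621 in IL-2 cells and 14.98 in naive cells. Cd74, also in that list, averaged 10.1, 17.25 and 12.5 FPKM in the same cocktail groups, 0.559 in IL-2 cells and 57.3 in naive cells. Lyz2 ran opposite to H2-Ab1 over the cocktail groups, at 11.5, 14.8 and 21.3 FPKM, with 0.427 in IL-2 cells and 8.22 in naive cells. The class II gene H2-Aa was at 0.805, 1.10 and 1.31 FPKM in these groups, 0.079 in IL-2 cells and 21.8 in naive cells. H2-Eb1 was at 1.16, 0.937 and 0.764 FPKM, 0.0468 and 10.3. Other markers ran the other way between the cultures, with Xcr1 at 0.937 and Itgax at 0.653 FPKM in cocktail CD44+CD62L- cells, against 5.65 and 1.56 in IL-2 cells. Cd209a and Clec9a, both dendritic cell markers, were listed at 0 in all cultured groups. The summed level was thus higher in cocktail than in IL-2 libraries and highest in naive ones, and its part in the levels of Nrn1 and Penk was not tested. The 7 B cell markers summed to at most 3.07 FPKM in cocktail libraries, 6.84 in IL-2 and 44.1 in naive libraries, and 8 erythroid, platelet and neutrophil markers to at most 5.39, 0.273 and 28.4 FPKM.

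The paralog of Nrn1, Nrn1l, was under 1 FPKM in every library and fell below the filter. It averaged 0.834 ± 0.189, 0.680 ± 0.0948 and 0.886 ± 0.0755 FPKM in the cocktail CD44loCD62L+, CD44+CD62L+ and CD44+CD62L- cells, 0.199 ± 0.0503 in IL-2 cells and 0.718 ± 0.138 in naive cells. The ranges of all 3 cocktail groups overlapped that of naive cells, and the IL-2 libraries lay below all others.

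Around Nrn1, the nearest protein-coding gene that does not overlap it on the higher-coordinate side, F13a1, 132 kb away, was at 0.106, 0.0916 and 0.112 FPKM in the 3 cocktail groups, 0.00621 in IL-2 cells and 0.0783 in naive cells. On the other side Lyrm4, an iron-sulphur cluster assembly gene, was at 6.64, 10.03 and 8.39 FPKM in the cocktail CD44loCD62L+, CD44+CD62L+ and CD44+CD62L- cells, 7.73 in IL-2 cells and 6.87 in naive cells. Beyond it Ppp1r3g, a glycogen-targeting phosphatase subunit gene 755 kb from Nrn1, was below the filter at 0.647, 0.668 and 0.501 FPKM in the same cocktail groups, against 0 in IL-2 and 0.00546 in naive cells. Beside Penk, Sdr16c6 and Sdr16c5 were listed at 0 in all libraries. Impad1, a phosphatase gene 624 kb away, was at 15.7, 16.4 and 17.4 FPKM in the same cocktail groups, 15.6 in IL-2 cells and 13.0 in naive cells. Beyond F13a1, Ly86 was at 0.304, 0.37 and 0.475 FPKM in the same cocktail groups, 0.101 in IL-2 cells and 1.725 in naive cells. Against naive cells limma called it lower in IL-2 cells (log2 fold change -1.31 ± 0.0696) and in cocktail CD44loCD62L+ cells (-1.06 ± 0.0696). Of all genes, 13.7% and 6.11% were called lower there. In cocktail CD44+CD62L+ and CD44+CD62L- cells Ly86 was also lower than naive, at -0.99 and -0.89, under the minimum fold. Beyond Impad1, Fam110b was highest in naive cells, at 0.455 FPKM. Neither Lyrm4 nor Impad1 was called in any of the 7 comparisons. Apart from Ly86, the other neighbours named were below 1 FPKM throughout.

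Genes with a like pattern were ranked by Pearson's r with Nrn1 over the 5 group means of log2(FPKM + 1). The 942 other genes compared had a highest group mean of at least 10 FPKM and a range of at least 2 log2 units. Some gene classes, given with the processing below, were left out, T cell receptor segments among them. The closest was Serpina3f, a serine protease inhibitor gene of a near-identical family whose reads may be shared, at r = 1.00 and 32.2, 33.1 and 33.0 FPKM in the cocktail CD44loCD62L+, CD44+CD62L+ and CD44+CD62L- cells, 0.828 in IL-2 cells and 0.181 in naive cells. Kit, the stem cell factor receptor gene, followed with 15.6, 13.0 and 16.0 FPKM in the cocktail groups, 1.196 in IL-2 cells and 0.261 in naive cells. The next were Fggy, Fam132a, P4ha2, which encodes a collagen prolyl hydroxylase subunit, and Grtp1.

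The cytokine genes Lif, Tnfsf4 and Csf2 and the interferon-induced gene Ifi44 completed the list of 10. Lif, encoding leukaemia inhibitory factor, was at 32.9, 44.8 and 44.6 FPKM in the cocktail CD44loCD62L+, CD44+CD62L+ and CD44+CD62L- cells, 0.334 in IL-2 cells and 0.117 in naive cells. Tnfsf4, the OX40 ligand gene, was at 16.0, 21.4 and 22.7 FPKM in these cocktail groups, 1.33 in IL-2 cells and 0.0407 in naive cells. Csf2, encoding GM-CSF, was at 7.11, 10.7 and 11.4 FPKM, 0.577 and 0.0277. Ifi44 was, like Nrn1, highest in the cocktail CD44loCD62L+ cells, at 14.5 FPKM against 8.80 and 8.36 in the other cocktail groups, with 0.589 in IL-2 cells and 0.378 in naive cells. All 10 had r of at least 0.98, and Nrn1 was well above each of them in the cocktail cells.

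With only 5 points, r is set mainly by the gap between the cocktail groups and the others. Of the 942 genes, 31 (3.29%) reached r = 0.95 and 7 reached 0.99. Only Fam132a and Ifi44 of the 10 had the same rank order as Nrn1 over all 5 groups, as did 8 of the 942 in all. When the 4 cultured groups were used alone, 0 of the 10 were among the 10 closest, and with FPKM in place of log values 4 were. Over the cultured groups the r of these 10 with Nrn1 still ran from 0.9686 for Csf2 to 0.9983 for Grtp1.

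At the opposite end were Traf4, an adaptor gene of TNF receptor family signalling, Ggt1, a glutathione-cleaving enzyme gene, the Rap activator gene Rasgrp2 and the kinase gene Tnk2. Traf4 was at 6.11, 6.14 and 5.85 FPKM in the cocktail CD44loCD62L+, CD44+CD62L+ and CD44+CD62L- cells, 17.9 in IL-2 cells and 27.4 in naive cells (r = -0.99). Ggt1 was at 1.29, 1.27 and 1.07 FPKM in the cocktail groups, 10.7 in IL-2 cells and 39.1 in naive cells. The rule also named LOC100302567, whose group means came from single libraries, since its SD of 278.8 FPKM exceeded its mean of 161 in IL-2 cells; over the 15 libraries its r was -0.47.

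For Penk the closest gene was Tgm2, encoding tissue transglutaminase, at r = 0.99. Tgm2 also peaked in the cocktail CD44+CD62L+ cells, at 28.9 ± 0.572 FPKM, with 19.9 ± 0.420 in the CD44loCD62L+ and 18.8 ± 0.101 in the CD44+CD62L- cells, 0.0814 ± 0.0563 in IL-2 cells and 0.367 ± 0.0883 in naive cells. Uchl1, a ubiquitin hydrolase gene best known from neurons, was at 13.5 and 13.1 FPKM in the cocktail CD44+CD62L+ and CD44+CD62L- cells and at 6.88 in the CD44loCD62L+ cells, 0.881 in IL-2 cells and 0.183 in naive cells. Cysltr2, a leukotriene receptor gene, was at 12.5 to 14.4 FPKM in the cocktail groups. The remaining 7 were Nrn1 itself and Lif, Grtp1, Csf2, Serpina3f, Tnfsf4 and Fam132a. Thus 6 of 10 genes in each list stood in both lists, and Penk ranked 23rd by r with Nrn1.

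**Figure D3:**
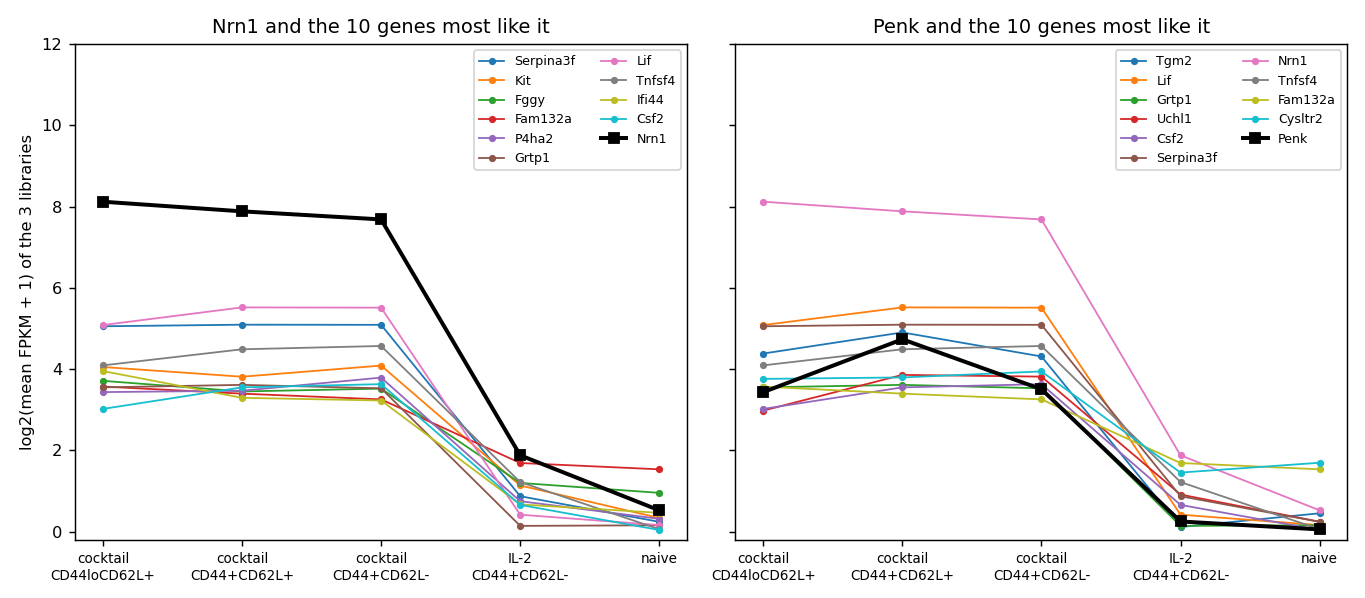
Group means, as log2(mean FPKM + 1) of 3 libraries, of Nrn1 (left, black) and Penk (right, black) with the 10 genes of highest Pearson's r over the 5 groups. The lines share the drop between the cocktail CD44+CD62L- and IL-2 cells, and only Tgm2 among those at the right repeats the clear peak of Penk in the cocktail CD44+CD62L+ cells.

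The opioid system was examined beside Penk through a list of 24 genes for precursors, receptors, processing enzymes and degrading enzymes. Of the other precursor genes, Pdyn was listed at 0 in all libraries, Pnoc reached at most 0.0882 FPKM, and Pomc averaged 0.949, 0.666 and 0.577 FPKM in the cocktail CD44loCD62L+, CD44+CD62L+ and CD44+CD62L- cells, 0.312 in IL-2 cells and 0.402 in naive cells. The receptor genes Oprm1, Oprd1, Oprk1 and Oprl1 were near the floor throughout, with a highest library of 0.0719 FPKM, for Oprl1. Ogfr, whose product binds Met-enkephalin as an opioid growth factor receptor, was at 87.4 ± 1.06, 76.2 ± 1.34 and 75.04 ± 0.977 FPKM in the cocktail groups in the same order, 71.9 ± 2.14 in IL-2 cells and 52.1 ± 0.897 in naive cells.

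Of the 24 genes, 11 passed the filter. In cocktail against IL-2 CD44+CD62L- cells, 2 of these rose and 0 fell, against 4.64% and 3.20% of all genes, with a list median of 0.06 against -0.01 for all genes. Pcsk1, the proprotein convertase gene whose enzyme cuts proenkephalin in neuroendocrine cells, was at 1.92, 2.01 and 2.04 FPKM in the cocktail CD44+CD62L- libraries and listed at 0 in all 3 IL-2 libraries (limma adjusted p = 5.03e-14). Arrb1, the gene of the receptor-desensitising protein beta-arrestin 1, was at 20.6 ± 0.259 against 1.57 ± 0.0564 FPKM, log2 fold change 3.07 ± 0.0205 (limma adjusted p = 6.47e-19). Naive cells lay between these levels, at 13.2 ± 0.254 FPKM.

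Pcsk1 also rose in the cocktail CD44loCD62L+ cells, with 4.62, 4.46 and 4.42 FPKM against 1.68, 1.63 and 1.85 in the cocktail CD44+CD62L+ cells (log2 fold change 1.01 ± 0.0340, limma adjusted p = 1.09e-11). It was the only member called there, where 0.418% of all genes rose and 2.26% fell. As its fold lay at the minimum, the call was lost without replicate 1 of the CD44loCD62L+ cells or replicate 2 of the CD44+CD62L+ cells, when 0 members were called. Within the cocktail culture Pcsk1 averaged 1.72 FPKM in the CD44+CD62L+ cells, 1.99 in the CD44+CD62L- cells and 4.50 in the CD44loCD62L+ cells. Penk was chosen by its difference across the CD62L gate, so nothing is read from setting its order beside that of Pcsk1. Between the CD62L gates, 0 members were called by limma (6 had an unadjusted p under 0.05, all under 2-fold), where 0.0356% of all genes rose and 0.0801% fell. At an unadjusted p under 0.05, 3059 of all 11242 genes were higher there and 3070 lower.

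Against naive cells, Pcsk1 rose in the cocktail CD44loCD62L+ cells (1.58 ± 0.0329 FPKM in naive cells, log2 fold change 1.09 ± 0.0340) and fell in IL-2 cells. Arrb1 was also called higher in the cocktail CD44loCD62L+ cells, at 29.0 ± 0.289 FPKM, and lower in IL-2 cells. It was not called against naive cells in the other cocktail groups. Pam, a peptide-amidating enzyme gene, fell in all 3 cocktail groups, to 0.399 ± 0.0429, 0.489 ± 0.0791 and 0.530 ± 0.0746 FPKM in the CD44loCD62L+, CD44+CD62L+ and CD44+CD62L- cells against 2.48 ± 0.0363 in naive cells. Ctsl, encoding cathepsin L, which can also cut proenkephalin, fell to 1.62 ± 0.173 in the cocktail CD44+CD62L+, 1.94 ± 0.215 in the CD44+CD62L- and 0.934 ± 0.0865 FPKM in IL-2 cells, against 8.19 ± 0.122 in naive cells. Carboxypeptidase E, the Cpe product that trims enkephalins, had a transcript level of at most 0.309 FPKM in any library. In all, 2 of 11 rose and 1 fell in cocktail CD44loCD62L+ cells, 0 and 2 in CD44+CD62L+, 0 and 2 in CD44+CD62L- and 0 and 3 in IL-2 cells. All genes rose and fell in 11.6% and 6.11%, 14.4% and 8.44%, 13.9% and 8.59%, and 17.6% and 13.7%.

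Of 31 genes associated with anergic, exhausted or regulatory T cells, a setting in which Nrn1 is known, 4 rose and 7 fell in cocktail against IL-2 CD44+CD62L- cells, where 4.64% of all genes rose and 3.20% fell (list median 0.08, -0.01 for all genes). Those that rose were the anergy ubiquitin ligase gene Rnf128, the transcription factor genes Ikzf2 and Tox, and Sdc4, a syndecan gene. Tox was at 7.76 ± 0.275 in cocktail against 0.610 ± 0.0810 FPKM in IL-2 cells (log2 fold change 2.44 ± 0.0394, limma adjusted p = 2.69e-15). Naive cells had more Tox than either, at 20.6 ± 0.718 FPKM, and limma called Tox lower than naive in every cultured group. Rnf128, Ikzf2 and Sdc4 were called higher than naive in each cocktail group. Those that fell were Tnfrsf9, Socs2, Il10 and the inhibitory receptor genes Pdcd1, Ctla4, Tigit and Havcr2. Pdcd1, encoding PD-1, was at 32.3 ± 0.536 against 242 ± 0.425 FPKM (log2 fold change -2.87 ± 0.0730, limma adjusted p = 2.82e-13).

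The surface markers used to sort anergic cells, folate receptor 4 and CD73, did not reach the minimum fold in that contrast. Folr4, the older symbol of the folate receptor 4 gene, averaged 8.42, 7.65 and 3.81 FPKM in the cocktail CD44loCD62L+, CD44+CD62L+ and CD44+CD62L- cells, 2.36 in IL-2 cells and 3.46 in naive cells. Its order over the groups differed from that of Nrn1 in that naive cells lay above IL-2 cells. Nt5e, the CD73 gene, was at 42.1, 21.9 and 29.7 FPKM in these cocktail groups, 19.8 in IL-2 cells and 5.17 in naive cells. Between the cocktail gates limma called 0 of 31 members, beside 0.116% of all genes across CD62L and 2.68% across CD44. At folds below the minimum, 24 members across CD62L and 27 across CD44 had an unadjusted p under 0.05. Of all 11242 genes, 3059 were higher and 3070 lower at that p across CD62L, and 4209 and 4246 across CD44.

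Against naive cells, 17 rose and 2 fell in cocktail CD44loCD62L+ cells, 16 and 2 in CD44+CD62L+, 17 and 4 in CD44+CD62L- and 14 and 3 in IL-2 cells, all against the same naive libraries. All genes rose and fell there in 11.6% and 6.11%, 14.4% and 8.44%, 13.9% and 8.59%, and 17.6% and 13.7%. The list medians were 1.47, 1.38, 1.28 and 0.75, beside medians within 0.02 of 0 for all genes. Lag3, an inhibitory receptor gene, was at 95.9 ± 1.16 FPKM in cocktail CD44loCD62L+ and 95.5 ± 1.99 in IL-2 cells against 0.434 ± 0.127 in naive cells. High Lag3 was thus shared by both cultures, unlike high Nrn1.

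**Figure D4:**
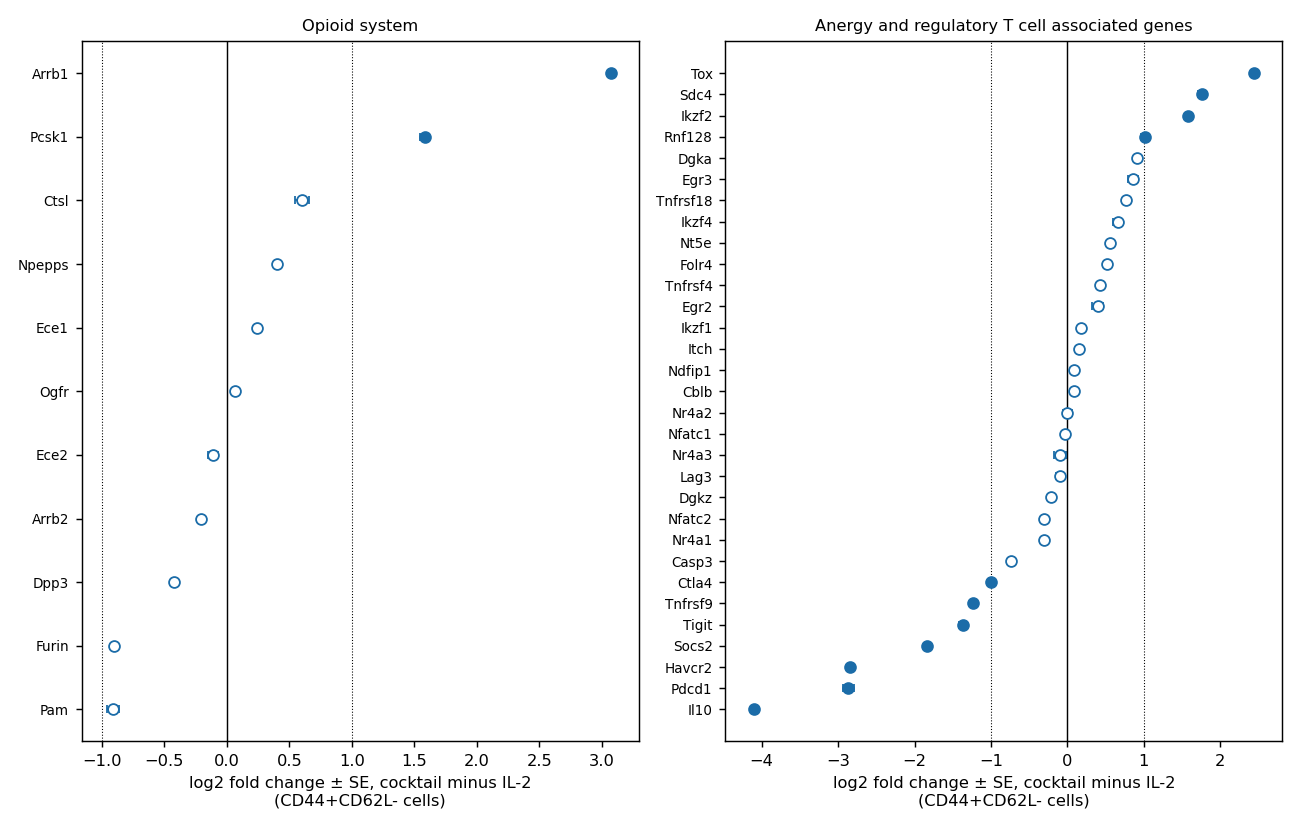
Log2 fold changes ± SE (limma, log2(FPKM + 1) scale) of cocktail minus IL-2 CD44+CD62L- cells for the tested members of the opioid system list (11 genes, left) and of the anergy and regulatory T cell list (31 genes, right); filled points passed the test and the 2-fold minimum, dotted lines mark 2-fold. Pcsk1 and Arrb1 are the called opioid genes, and the called anergy genes lie on both sides of 0.

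Penk is a classical cyclic AMP target, so 24 tested genes of the cAMP and CREB response were set beside it. In cocktail against IL-2 CD44+CD62L- cells 2 rose and 1 fell, beside 4.64% and 3.20% of all genes (list median -0.08). The AP-1 gene Jun was at 47.8 ± 0.959 against 15.2 ± 0.615 FPKM (log2 fold change 1.59 ± 0.0321, limma adjusted p = 2.59e-14), and the cAMP phosphodiesterase genes Pde4d and Pde4a had log2 fold changes of 1.01 ± 0.0213 and -1.76 ± 0.0523. Between the cocktail gates, where Penk differed, limma called 0, beside 0.116% of all genes across CD62L and 2.68% across CD44. An unadjusted p under 0.05 was reached by 15 members across CD62L and 17 across CD44. Of all 11242 genes, 3059 were higher and 3070 lower at that p across CD62L, and 4209 and 4246 across CD44. Against naive cells, 6 rose and 5 fell in cocktail CD44loCD62L+ and in CD44+CD62L+ cells, 7 and 6 in CD44+CD62L- and 5 and 3 in IL-2 cells. The shares of all genes that rose and fell were 11.6% and 6.11% in CD44loCD62L+, 14.4% and 8.44% in CD44+CD62L+, 13.9% and 8.59% in CD44+CD62L- and 17.6% and 13.7% in IL-2 cells. Crem, a CREB family gene, was at 15.1 ± 0.0885 FPKM in cocktail CD44loCD62L+ cells and Fos, the AP-1 gene, at 19.0 ± 0.709, against 5.60 ± 0.133 and 64.3 ± 0.846 FPKM in naive cells.

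Genes that neurons induce with activity, the setting in which Nrn1 was first found, were called about as often as all genes between the cultures, 9.09% against 7.85%. Of 22 listed, 11 passed the filter, among them Egr2, Fos, Fosb and Rgs2, which also stand in other lists here. In cocktail against IL-2 CD44+CD62L- cells 0 rose and 1 fell: Egr1, an immediate early transcription factor gene, at 10.2 ± 0.200 against 81.0 ± 1.05 FPKM (log2 fold change -2.87 ± 0.0198, limma adjusted p = 7.26e-19). Across the CD62L and CD44 gates of the cocktail culture limma called 0, beside 0.116% and 2.68% of all genes called. At an unadjusted p under 0.05 there were 7 members across CD62L and 8 across CD44. Of all 11242 genes, 3059 were higher and 3070 lower at that p across CD62L, and 4209 and 4246 across CD44. Against naive cells, 0 rose and 2 fell in cocktail CD44loCD62L+ and in CD44+CD62L+ cells, 0 and 1 in CD44+CD62L-, and 1 and 1 in IL-2 cells, where 17.7%, 22.8%, 22.5% and 31.3% of all genes were called in either direction.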

How the data were processed

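The FPKM values, 1 column per library, are normalized values that the authors deposited. TopHat2 2.0.9, Cuffdiff 2.1.1 and mm10 are named in the submitters' processing notes; for the annotation, settings and use of strand, nothing is stated in the sources used here. The members and gene lists were chosen with earlier results of these data known. Values were taken to log2(FPKM + 1), and 11242 genes, those reaching a mean of 1 FPKM in some population, entered a fit in R 4.3.3 by limma 3.58.1 (population as the only term, 15 libraries, mean-variance trend). Calls needed a Benjamini-Hochberg adjusted p under 0.05 over all genes and a 2-fold change. With 3 libraries each, an exact two-sided permutation of 2 groups has a smallest p of 0.1, so none was used. On simulated data for cocktail against IL-2 CD44+CD62L- cells, 48 of 50 genes changed 3-fold, 49 of 50 changed 8-fold, 50 of 50 changed 20-fold and 0 of 50 changed 1.5-fold were called among 11242 genes. A 1.5-fold change lies under the 2-fold minimum, so that result follows from the rule. The simulation used the spread between libraries of a group and no other group differences. It cannot show how calls would fare between mice or cultures.

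Named genes were the members, the 10 highest and 5 lowest by r with Nrn1, the 10 highest with Penk, and list members that passed the test or had a group mean of at least 5 FPKM. The genes ranked by r excluded small RNAs, predicted genes with Gm symbols and genes with symbols ending in Rik. T cell receptor and immunoglobulin segment genes were excluded from that ranking as well. Opioid precursors and receptors, Nrn1l, markers and genomic neighbours were named for completeness. No 2 libraries were identical. Gene spans are from GENCODE M21. Promoter sequences and motifs were not analysed here. Alternatives were pseudocounts, filters, scalings, a fit to the 6 libraries compared, a replicate block, no variance trend, other measures of likeness and leaving out each library.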

Additional observations from a re-analysis of the deposited data

How the results depend on the processing

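The direction of all 14 fold changes of Nrn1 and Penk was the same in the 209 recomputed values, and 206 stayed on their side of the 2-fold minimum. The others were Penk in cocktail CD44+CD62L+ against CD44+CD62L- cells (0.9955 with a pseudocount of 5) and, in IL-2 against naive cells, Nrn1 (0.50 with a pseudocount of 5) and Penk (1.07 with a pseudocount of 0.1). With the replicate block, which leaves balanced estimates as they were, Nrn1 kept 5.81 and Penk 1.23 in the contrasts they were chosen for, and no count of list members changed by more than 1.5 times; replicate numbers did not pair libraries (30 same-numbered pairs, median correlation of deviations -0.01, 2 above 0.1, and 3 of 15 libraries closest to their own number). Leaving out a library, Penk ranged from 1.21 to 1.25 in that contrast.

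Counts of called list members were less stable, in 32 of 420 recomputed values. In cocktail against IL-2 cells, opioid members called were 1 with a pseudocount of 5 or a 5 FPKM filter, cAMP members 5 and 1 with pseudocounts of 0.1 and 5, and activity-regulated genes 2 with 0.1. In cocktail CD44loCD62L+ against CD44+CD62L+ cells, opioid members were 2 with 0.1, 0 with 5 or the filter and 0 to 1 without single libraries, and anergy and cAMP members 1 each with 0.1. In IL-2 against naive cells, cAMP members were 13 with 0.1 and 5 with 5, and activity-regulated genes 5 with 0.1 and 4 after quantile normalization. Against naive cells, opioid members in each cocktail group were 0 with 5 and 1 with the filter. There cAMP members with a pseudocount of 5 were 6 in CD44loCD62L+, 4 in CD44+CD62L+ (7 with the filter) and 6 in CD44+CD62L- cells; activity-regulated genes were 1 with 5 or the filter in both CD62L+ groups, and 3 with 0.1 or quantile normalization in CD44+CD62L- cells. A filter leaves fewer members tested; otherwise the cause was not tested.

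Over all genes, calls in cocktail against IL-2 cells were 882, and 1393 and 379 with pseudocounts of 0.1 and 5; across the CD62L gate 13, 41 and 7; across the CD44 gate 301, 495 and 178. Against naive cells a pseudocount of 5 gave 1014 in CD44loCD62L+ (1993), 1412 in CD44+CD62L+ (2564), 1393 in CD44+CD62L- (2530) and 2038 in IL-2 cells (3519 with a pseudocount of 1). Of the 10 genes most like Nrn1 and Penk, 4 and 2 remained with FPKM in place of logs, 0 and 1 over the cultured groups alone, and 2 and 3 had a Spearman's rho of 1. Read totals were not given, so the precision of the lowest levels, those of Penk in IL-2 and naive cells, is unknown.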
